A study of Mus musculus with 4 samples.

Results

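A set of 10 genes known from monocytes, dendritic cells and their bone marrow precursors was read in RNA sequencing of LT-HSCs (long-term haematopoietic stem cells) sorted from mice with and without the gene Fam122a. The genes were taken by symbol from a fixed list, Irf8, Klf4, Ly6c2, Ccr2, F13a1, Ms4a6c, Cx3cr1, Cd300e, Siglech and Cd209a, and all 10 were found among the 51912 Ensembl genes of the files. There were 2 Fam122a knockout (KO) and 2 wild-type (WT) libraries. Each came from sorted cells pooled from 3 C57BL/6 mice aged 8 to 12 weeks, in both groups alike. The sort gate was LSK (lineage-negative, Sca1+ and Kit+) without CD34 and Flk2, and amplified cDNA was prepared with SMART-Seq v4, a low-input kit that does not mark strand. How the Fam122a allele was made, and in which cells it was deleted, is not given in the sources used here. A tissue-wide effect and one in the stem cells alone therefore cannot be told apart.

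Monocytes arise from precursors that pass through a stage shared with dendritic cells. The transcription factor IRF8 is needed for that branch, and KLF4 acts with it in monocyte formation. Classical monocytes carry Ly6C and the chemokine receptor CCR2, with which they leave the marrow, while patrolling monocytes carry CX3CR1 and stay along vessel walls. Plasmacytoid dendritic cells, marked in the mouse by Siglec-H, make type I interferon, and conventional dendritic cells present antigen. Long-term stem cells are not known as a site of high expression of these effector genes.

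Values are FPKM, which divides a gene's fragments by its length and by the depth of its library. The files give no depth, but low values fell on steps that implied 6.82 and 5.9 (in units of 1e6 fragments) in KO replicates 1 and 2, and 4.2 and 2.46 in WT replicates 1 and 2. WT replicate 2 stood apart. In it 53.9% of the summed FPKM lay on loci that name no gene, against 1.74% and 1.81% in KO and 9.14% in WT replicate 1. The median of coding genes whose genomic span is over 16 times their exonic length was 27.6 FPKM there, against 0.92 and 1.02 FPKM in KO and 7.22 FPKM in WT replicate 1. The KO libraries were therefore compared with WT replicate 1, and WT replicate 2 is shown beside them. Fam122a itself was at 0 in both KO libraries, against 18.4 and 7.46 FPKM in WT. The 11 stem cell markers summed to 483 and 488 FPKM in KO and to 519 and 477 FPKM in WT, but single markers differed. Against WT replicate 1, 5 of the 10 tested were above 0 and 5 below. Mecom, whose span is 48.0 times its exonic length, was at 46.8 and 254 FPKM in WT replicates 1 and 2. Ly6a was at 201 and 0 FPKM there. Tek was at 4.43 and 2.74 FPKM in KO, against 41.5 and 79.65 FPKM in WT. Procr, another of these markers, was at 15.8 and 19.2 FPKM in KO, against 17.6 and 0 FPKM in WT. Of the genes of the antigens gated out, Cd34 was at 87.7 and 62.1 FPKM in KO, against 179 and 18.2 FPKM in WT, and Flt3, which encodes Flk2, at 36.2 and 24.7 FPKM in KO, against 26.2 and 16.1 FPKM in WT, so RNA of both was present despite the gate. The 13 neutrophil markers summed to 78158 and 67875 FPKM in KO and to 177835 FPKM in WT replicate 1, so RNA of mature blood cells was present, and in bulk samples fewer cells of a type and less RNA per cell cannot be told apart.

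The promoters of 3 genes are printed because their genes carry the main results. Irf8 was the gene with the smallest p of the 10, Ly6c2 was the most abundant, and Ly6c1 is its near copy at a far lower level. Each is the stretch of 250 bases before the first start that RefSeq lists (GRCm38.p6, 5′ to 3′ on the gene's strand), for Irf8 at chr8:120736108-120736357 (plus strand), for Ly6c2 at chr15:75111972-75112221 (minus strand) and for Ly6c1 at chr15:75048838-75049087 (minus strand). Bases that follow the start were found in an annotated transcript of the gene for Irf8 and Ly6c1, but not for Ly6c2. Capitals mark matches to the motifs searched.
Irf8: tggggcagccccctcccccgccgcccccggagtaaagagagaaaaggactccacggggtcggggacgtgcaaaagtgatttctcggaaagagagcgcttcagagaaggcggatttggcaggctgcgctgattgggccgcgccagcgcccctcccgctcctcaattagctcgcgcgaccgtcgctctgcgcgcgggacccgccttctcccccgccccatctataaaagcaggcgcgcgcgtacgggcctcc
Ly6c2: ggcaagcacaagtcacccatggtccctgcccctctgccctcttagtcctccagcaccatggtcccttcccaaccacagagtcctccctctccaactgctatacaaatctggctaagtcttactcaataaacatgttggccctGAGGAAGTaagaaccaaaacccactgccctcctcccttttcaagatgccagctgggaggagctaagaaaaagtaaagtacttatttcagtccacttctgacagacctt
Ly6c1: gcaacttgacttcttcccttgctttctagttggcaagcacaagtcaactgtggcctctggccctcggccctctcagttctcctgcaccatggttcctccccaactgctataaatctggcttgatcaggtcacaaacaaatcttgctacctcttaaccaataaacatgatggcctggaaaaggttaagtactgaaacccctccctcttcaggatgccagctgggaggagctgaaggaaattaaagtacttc
On either strand, 4 motifs were searched in all 10 promoters and in 27025 mouse promoters of the same length. The letters GAGGAAGT, of the type bound by PU.1, stood in 1 of the 10 (Ly6c2, bases 143 to 150) and in 2.44% of all promoters. GGAAGT, which is part of the first motif, stood in 5 of the 10 (Ly6c2, Ms4a6c, Cd300e, Siglech and Cd209a) and in 19.99% of all. GAAA followed by any 2 bases and a second GAAA, of the type bound by interferon regulatory factors, stood in 0 of the 10 and in 3.04% of all. GGGTGTGG, of the type bound by KLF factors, stood in 1 of the 10 (Siglech, where its copies overlap) and in 3.19% of all. A match is a description of letters and not a binding site.

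Irf8 had the smallest p of the 10 genes and nearly equal levels in the KO libraries. Irf8 was at 92.6 and 92.2 FPKM in KO, against 45.2 FPKM in WT replicate 1 and 7.53 FPKM in WT replicate 2. Both KO libraries stood above WT replicate 1, and they differed from each other by 0.0062 on the log2(FPKM + 1) scale. WT replicate 2 was the lowest library for every member but Cx3cr1, so a KO level above it adds nothing here. The KO values were 2.05 and 2.04 times that of WT replicate 1. The difference on the log2(FPKM + 1) scale was 1.01 (SE 0.07, 95% interval 0.70 to 1.33), and it missed the threshold with limma (adjusted p = 0.0503). With equal library totals it was 1.24 and passed (limma adjusted p = 0.0449), as it did with quantile normalization (0.92, adjusted p = 0.0461), and over 11 alternatives its adjusted p ran from 0.0158 to 0.0805. Irf8 (ENSMUSG00000041515, GRCm38 chromosome 8, 120736358 to 120756694, plus strand) has 7055 exonic bp in 11 exons. In the KO libraries its level was above that of 94.3% of coding genes, in each, and in WT replicate 1 above 88.2%.

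Klf4, the other transcription factor of the list, was low in every library. It was at 7.53 and 4.59 FPKM in KO, against 4.03 FPKM in WT replicate 1 and 1.13 FPKM in WT replicate 2. Both KO libraries lay above WT replicate 1, but KO replicate 2 was only 1.14 times WT replicate 1. The log2 difference was 0.46 (SE 0.41, 95% interval -1.31 to 2.22, limma adjusted p = 0.507). Klf4 (ENSMUSG00000003032) lies on chromosome 4, 55527143 to 55532466, minus strand, with 3049 exonic bp. Its values rest on at most 144 and 76.1 fragments in KO and 47.5 in WT replicate 1, where the length used by the authors may be shorter than the exonic bp.

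**Figure D1:**
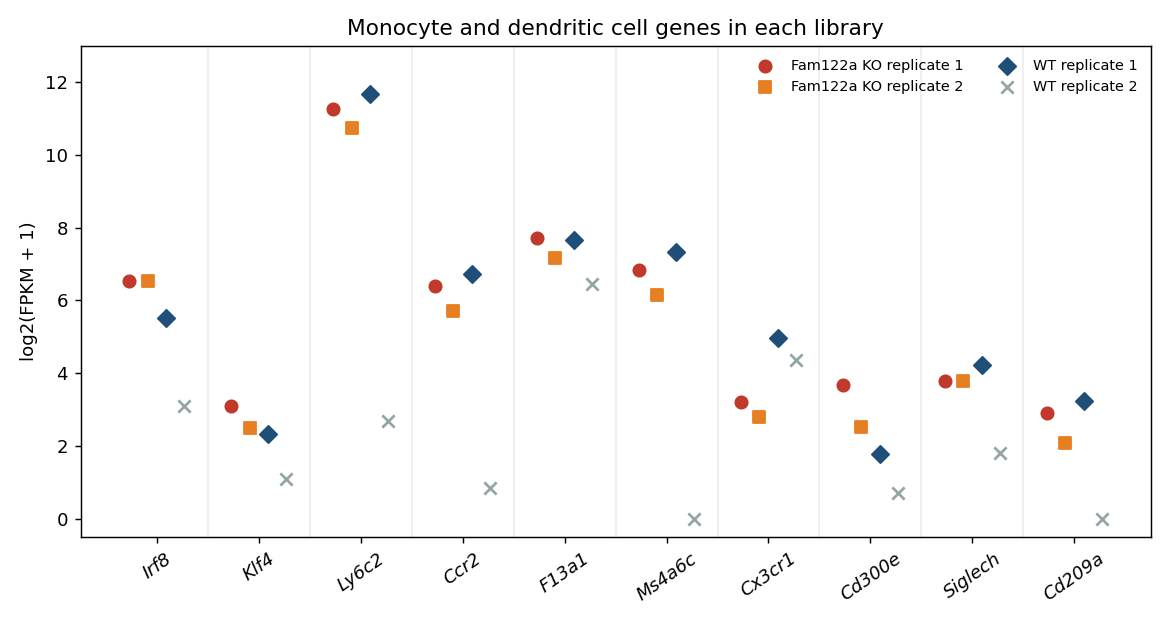
Level of the 10 genes in each library as log2(FPKM + 1), with 1 point per library: the KO libraries as a circle and a square, WT replicate 1 as a diamond and WT replicate 2 as a cross. Ly6c2 is the highest of the 10 in KO and in WT replicate 1, and WT replicate 2 is the lowest library for every gene but Cx3cr1.

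The 4 classical monocyte genes were abundant in KO and WT replicate 1, and none of them passed the test. Ly6c2, the gene of the Ly6C surface antigen, was at 2463 and 1721 FPKM in KO, against 3289 FPKM in WT replicate 1 and 5.39 FPKM in WT replicate 2. Both KO libraries were below WT replicate 1 and far above WT replicate 2. The log2 difference was -0.68 (SE 0.37, 95% interval -2.25 to 0.90, limma adjusted p = 0.331). Ly6c2 held 81.8% and 81.6% of the summed FPKM of the 10 genes in KO and 85.1% in WT replicate 1. It lies at chromosome 15, 75108158 to 75111970, minus strand (ENSMUSG00000022584). Its longest coding transcript matched that of Ly6c1 at 802 of 822 aligned bases, with an unbroken identical run of 188 bases, so how reads were split between the copies is uncertain. Ly6c1 was listed at 42.6 and 28.8 FPKM in KO, against 39.6 FPKM in WT replicate 1 and 0 in WT replicate 2.

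Ccr2, the receptor that draws classical monocytes out of the marrow, was at 83.6 and 51.3 FPKM in KO, against 106 FPKM in WT replicate 1 and 0.78 FPKM in WT replicate 2. Ms4a6c, a four-span membrane protein gene of the myeloid Ms4a cluster, was at 113 and 69.4 FPKM in KO, against 161 FPKM in WT replicate 1 and 0 in WT replicate 2. For both genes KO replicate 1 lay between KO replicate 2 and WT replicate 1. The log2 differences were -0.68 (SE 0.43, 95% interval -2.51 to 1.15) for Ccr2 and -0.86 (SE 0.43, -2.69 to 0.97) for Ms4a6c, and neither passed (limma adjusted p = 0.378 and 0.305). Ccr2 (ENSMUSG00000049103) lies at chromosome 9, 124101950 to 124113557, plus strand. Ms4a6c (ENSMUSG00000079419) lies at chromosome 19, 11469366 to 11482192, plus strand.

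F13a1, which encodes the catalytic A subunit of clotting factor XIII and is high in classical monocytes, was at 212 and 144 FPKM in KO, against 202 and 86.6 FPKM in WT replicates 1 and 2. The KO libraries lay on either side of WT replicate 1. The log2 difference was -0.21 (SE 0.34, 95% interval -1.67 to 1.26, limma adjusted p = 0.702), and it was 0.029 with equal library totals, so no direction holds. F13a1 (ENSMUSG00000039109) spans chromosome 13, 36867178 to 37050244, minus strand, which is 27.2 times its 6739 exonic bp. In WT replicate 2, the library in which genes of long span were high, it stood at 43.0% of its value in WT replicate 1.

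The 2 patrolling monocyte genes went opposite ways, and neither passed. Cx3cr1, the receptor for the chemokine CX3CL1, was at 8.22 and 5.93 FPKM in KO, against 30.1 and 19.5 FPKM in WT replicates 1 and 2. It was the only member with both KO libraries below both WT libraries. The log2 difference from WT replicate 1 was -1.96 (SE 0.30, 95% interval -3.22 to -0.70, limma adjusted p = 0.103, and 0.0534 to 0.133 over 10 alternatives). Cx3cr1 (ENSMUSG00000052336) spans chromosome 9, 119901616 to 120069879, minus strand, which is 37.4 times its 4505 exonic bp, the highest ratio of the 10. Among 2853 tested genes whose span is over 16 times their exonic length, 26.5% passed as lower in KO (median log2 difference -1.40), against 6.26% of 6321 genes with a span under 4 times (0.17). The part of this signal in the Cx3cr1 difference was not tested beyond subtracting the WT replicate 2 profile, after which the difference was -1.98. That step took 0.138 times the WT replicate 2 value off WT replicate 1, which was then rescaled to its former total. It could therefore move this gene only a little.

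Cd300e, an activating receptor gene of the CD300 family on patrolling monocytes, was at 11.8 and 4.78 FPKM in KO, against 2.41 and 0.64 FPKM in WT replicates 1 and 2. Both KO libraries were above WT replicate 1, but unequally, at 4.88 and 1.98 times its value. The log2 difference was 1.33 (SE 0.72, 95% interval -1.74 to 4.40, limma adjusted p = 0.328). Cd300e (ENSMUSG00000048498, chromosome 11, 115051917 to 115062177, minus strand) has a single annotated transcript, and its values correspond to about 148 and 52.1 fragments in KO and 18.7 and 2.97 fragments in WT.

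The dendritic cell genes were low and did not pass. Siglech, a receptor of plasmacytoid dendritic cells, was at 12.8 FPKM in both KO libraries, against 17.9 FPKM in WT replicate 1 and 2.52 FPKM in WT replicate 2. The KO libraries agreed closely and lay between the WT libraries. The log2 difference from WT replicate 1 was -0.45 (SE 0.14, 95% interval -1.05 to 0.15, limma adjusted p = 0.193). Cd209a, a C-type lectin gene of monocyte-derived and conventional dendritic cells, was at 6.53 and 3.26 FPKM in KO, against 8.51 FPKM in WT replicate 1 and 0 in WT replicate 2. Its log2 difference was -0.75 (SE 0.53, 95% interval -3.02 to 1.53, limma adjusted p = 0.420), on at most 59.4 and 25.8 fragments in KO and 48.0 in WT replicate 1. Siglech (ENSMUSG00000051504) lies at chromosome 7, 55768178 to 55778925, plus strand, and Cd209a (ENSMUSG00000031494) at chromosome 8, 3743397 to 3748984, minus strand.

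**Figure D2:**
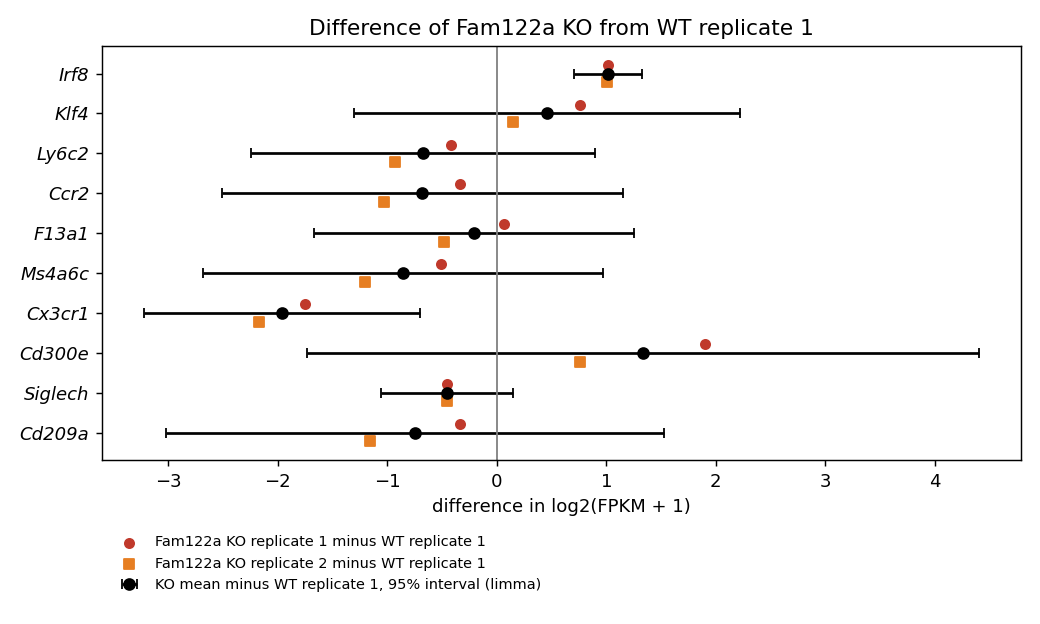
Difference in log2(FPKM + 1) from WT replicate 1 for each of the 10 genes, as the mean of the KO libraries with its 95% limma interval in black and each KO library as a coloured point. The intervals of Irf8 (0.70 to 1.33) and Cx3cr1 (-3.22 to -0.70) leave out 0, before adjustment over all genes, and the other 8 include it.

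Over the 10 genes, all passed the filter on low values (a mean of at least 1 FPKM over the 3 libraries compared), and limma called 0 higher and 0 lower in KO against WT replicate 1. Over all 15867 genes tested, 0.454% were called higher and 9.37% lower (72 and 1487 genes, or 865 and 1716 with quantile normalization). At an unadjusted p under 0.05, Irf8 was higher and Cx3cr1 lower, 1 of the 10 each way, against 13.2% of all genes tested higher and 20.2% lower. Both KO libraries lay above WT replicate 1 in 3 of the 10 (Irf8, Klf4 and Cd300e), against 42.5% of all genes tested, and below it in 6, against 43.0%. At 2-fold or more in both KO libraries, 1 was higher (Irf8), against 8.20% of all genes tested, and 1 lower (Cx3cr1), against 20.1%. The mean filter also keeps genes that are high in WT replicate 1 alone, and their part in the shares of lower genes was not tested. A filter of at least 1 FPKM in 2 libraries kept 13848 genes and all 10 members. None of these counts is read as particular to the 10 genes. The median log2 difference of the 10 was -0.56, beside -0.0021 over all genes tested. Having no replicate in this fit, WT replicate 1 takes its spread from the KO libraries.

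With WT replicate 2 included, the direction of 6 members turned. The median log2 difference of the 10 was then 1.47, and 9 of the 10 were above 0. Limma called 0.00% of 20434 genes higher and 0.00% lower, with 118 higher and 2364 lower at an unadjusted p under 0.05. The differences of Ly6c2, Ccr2 and Ms4a6c were 3.83, 2.27 and 2.81, with standard errors of 3.998, 1.99 and 2.37. In WT replicate 2 the 10 genes summed to 124 FPKM, against 3866 FPKM in WT replicate 1, and Ms4a6c and Cd209a were at 0.

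The KO libraries also differed from each other, mostly in 1 direction. Of the 10 genes, 9 were higher in KO replicate 1 than in KO replicate 2, against 45.3% of all genes tested, and 5 were at least 1.5 times higher, against 15.0%. The ratio was highest for Cd300e (2.46) and Cd209a (2.003), and Irf8 and Siglech were at nearly equal levels in both. The median log2 difference between the KO libraries was 0.58 over the 10 genes and -0.011 over all genes tested. Among the 26 further classical monocyte genes, 22 were higher in KO replicate 1 (median 0.35). The eosinophil and basophil markers were higher there as well (5 of 5, median 0.88), while 8 of 8 erythroid markers and 8 of 9 B cell markers were lower (medians -0.56 and -0.51). Prg2, an eosinophil granule gene, was at 8593 and 4666 FPKM in KO, against 947 FPKM in WT replicate 1. The part of a differing mix of cells in these values was not tested.

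**Figure D3:**
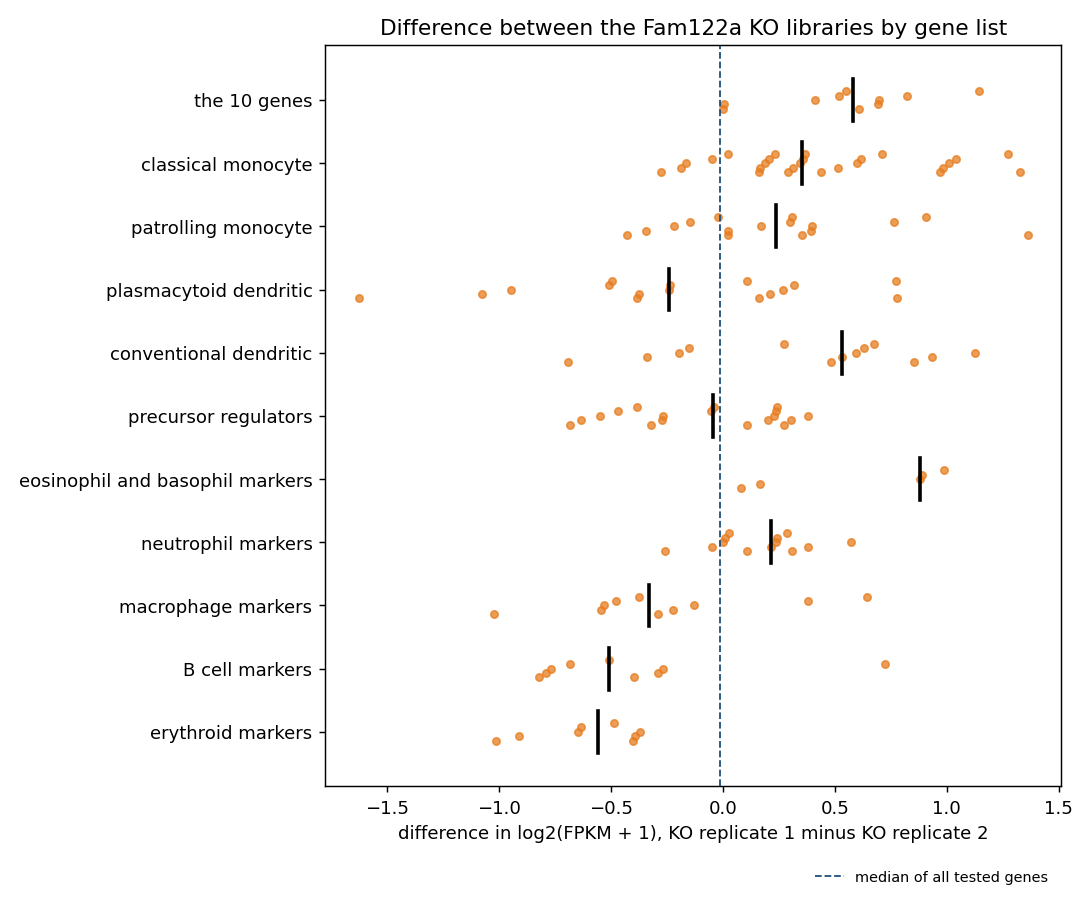
Difference in log2(FPKM + 1) between KO replicate 1 and KO replicate 2 for the 10 genes, 5 further lists and the markers of 5 other cell types, with 1 point per gene that passed the filter. Black bars are list medians, which run from 0.88 in eosinophil and basophil markers to -0.56 in erythroid markers, and the dashed line is the median of all genes tested.

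Further genes of the same cells were read from 5 lists, and limma called 0 of them, against 0.454% of all genes tested called higher and 9.37% called lower. An unadjusted p under 0.05 was reached by 15 of these genes with higher and 5 with lower values in KO, against 13.2% and 20.2% of all genes tested. With quantile normalization Fn1, Atp1b1, Irf4 and Relb were among the genes that passed as higher, and Ccr9 passed as lower. That setting called 865 of all 15867 genes tested higher and 1716 lower. Under the median ratio Cd300c passed as lower. Tested genes numbered 26 in the classical monocyte list, 16 in the patrolling, 16 in the plasmacytoid, 13 in the conventional dendritic and 18 in the precursor regulator list. In the classical monocyte list 7 of 26 tested genes were above 0 and 19 below (median log2 difference -0.41). Without KO replicate 2 the split was 11 above and 15 below, with a median of -0.19. The neutrophil markers lay below 0 in 13 of 13 (median -0.84), and their part in the list's values was not tested. Fn1, encoding fibronectin, was at 148 and 132 FPKM in KO, against 58.0 and 14.9 FPKM in WT. Tifab, an adaptor-related gene, was at 53.3 and 46.6 FPKM in KO, against 29.3 and 0.85 FPKM in WT. Plac8 was at 603 and 485 FPKM in KO, against 1126 and 10.3 FPKM in WT, and Mgst1, a microsomal glutathione transferase gene, at 201 and 156 FPKM in KO, against 401 and 3.02 FPKM in WT. The median of this list stayed below 0 under equal totals (-0.19), the median ratio (-0.58) and quantile normalization (-0.14), and was 1.68 with all 4 libraries.

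The patrolling monocyte list had 9 of 16 genes above 0 (median 0.18, or -0.0073 under the median ratio, so no direction holds). Treml4, a receptor gene of patrolling monocytes, was at 14.4 and 11.1 FPKM in KO, against 4.23 and 4.84 FPKM in WT. Itgal, an integrin subunit gene, was at 38.8 and 39.4 FPKM in KO, against 29.1 and 0.43 FPKM in WT. Clec12a, an inhibitory lectin gene, was at 161 and 130 FPKM in KO, against 264 and 3.60 FPKM in WT. Cebpb, a transcription factor gene needed for these monocytes, was at 174 and 172 FPKM in KO, against 145 and 0.62 FPKM in WT.

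In the plasmacytoid list 10 of 16 tested genes were above 0 (median 0.23), with the widest range of the 5 lists, from -2.97 to 3.11. Spib, a transcription factor gene of these cells and of B cells, was at 25.6 and 33.6 FPKM in KO, against 9.75 and 0 FPKM in WT. Atp1b1 was at 28.0 and 24.0 FPKM in KO, against 5.30 and 1.35 FPKM in WT. Ccr9, a chemokine receptor gene, was at 2.19 and 3.49 FPKM in KO, against 28.8 and 9.44 FPKM in WT, and Cd300c at 1.08 and 0.86 FPKM in KO, against 5.16 and 0 FPKM in WT. The B cell markers, 6 of 9 above 0 with a median of 1.33, moved with Spib, and their part in its value was not tested.

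In the conventional dendritic list 8 of 13 tested genes were above 0 (median 0.18, or -0.0039 under the median ratio, so no direction holds). Sirpa, an inhibitory receptor gene, was at 88.2 and 98.1 FPKM in KO, against 62.2 and 0.26 FPKM in WT. Irf4, a relative of Irf8, was at 4.22 and 5.61 FPKM in KO, against 1.71 and 0 FPKM in WT. Wdfy4, needed for cross-presentation, was at 14.7 and 10.2 FPKM in KO, against 4.42 and 0.04 FPKM in WT. Cadm1 was at 2.90 and 1.58 FPKM in KO, against 6.59 and 111 FPKM in WT. Its span is 31.4 times its exonic length, and genes of long span were high in WT replicate 2. The part of this signal in its values was not tested.

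In the list of precursor regulators, 15 of 18 were above 0 (median 0.54, beside -0.0021 over all genes tested), and 14 had both KO libraries above WT replicate 1, against 42.5% of all genes. Myb was at 115 and 118 FPKM in KO, against 63.3 and 4.22 FPKM in WT, and Klf2 at 68.4 and 63.4 FPKM in KO, against 33.02 and 0.73 FPKM in WT. Relb was at 10.8 and 8.95 FPKM in KO, against 3.35 and 0.14 FPKM in WT, and Ikzf1, the Ikaros gene, at 46.8 and 56.4 FPKM in KO, against 25.6 and 24.9 FPKM in WT. Their smallest adjusted p was 0.0608 (limma). Under equal totals the list median was 0.77 beside 0.22 for all genes, and under the median ratio 0.35 beside -0.19.

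**Figure D4:**
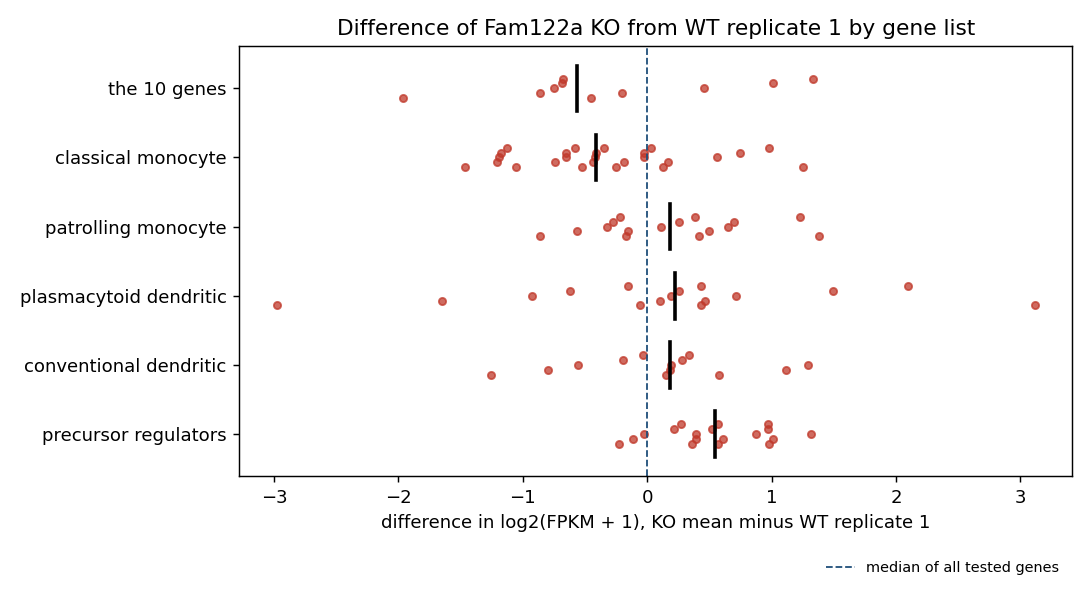
Difference in log2(FPKM + 1) between the KO mean and WT replicate 1 for each tested gene of the 10 and of 5 further lists. Black bars are list medians, lowest in the 10 genes (-0.56) and highest in precursor regulators (0.54), and the dashed line is the median of all genes tested.

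Relatives of the members did not share 1 pattern. Of the 8 other interferon regulatory factor genes, 7 were above 0 (median 0.44, and 0.25 under the median ratio), and none passed. Irf1 was at 72.5 and 72.3 FPKM in KO, against 52.5 and 1.46 FPKM in WT. All 7 tested relatives of Cd300e lay below 0 (median -0.59), where Cd300e itself was above 0, and 2 of the 7 were above 0 under equal totals. Without KO replicate 2 that median was -0.15, and without KO replicate 1 it was -0.76. Of 4 tested Cd209 relatives, Cd209c, a C-type lectin gene, fell, at 0.72 and 0.86 FPKM in KO, against 8.43 and 24.3 FPKM in WT (log2 difference -2.40, SE 0.13, limma adjusted p = 0.0358). Cd209c was higher in WT replicate 2 than in any other library. It did not pass with a pseudocount of 0.1, with all 4 libraries or after subtraction of the WT replicate 2 profile.

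The 3 coding genes nearest to Irf8 over the 2 KO libraries and WT replicate 1, among 13173, were Tap1, Rogdi and Slc39a7. They lay at Euclidean distances of 0.13 to 0.14 in log2(FPKM + 1). The next 3, Pik3cd, Ssbp4 and Cdk6, were nearly as close (0.14 to 0.15). Nearness over so few libraries is a description of levels, and shared regulation was not tested. Tap1, which carries peptides to MHC class I, was at 89.6 and 88.5 FPKM in KO, against 41.8 FPKM in WT replicate 1 and 0 in WT replicate 2.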

How the data were processed

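RNA from sorted LT-HSCs was sequenced in 2 Fam122a KO and 2 WT libraries, each a pool of 3 animals. The authors deposited 1 value per feature without a unit, and these were read as FPKM because of their size and steps. Per the submitters' processing notes, HISAT2 2.1.0, STAR 2.7.1a and bcl2fastq were used, on GRCm38.p5 and mm10, in no stated role or order. The quantifier and gene models are not stated in those notes. The 35791 MSTRG loci of the 87703 features name no gene and stayed out of the tests. Symbols, coordinates and exonic lengths came from GENCODE M21 (GRCm38), which held 51719 of 51912 Ensembl genes.

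The test was limma 3.58.1 in R 4.3.3 (eBayes with trend) on log2(FPKM + 1), which understates fold changes of low genes. Genes needed a mean of at least 1 FPKM over the libraries compared. P-values were two-sided and adjusted by the Benjamini-Hochberg method over all genes tested, and called under 0.05. Per the labels the libraries of a group are biological replicates. P-values measure the spread between the KO libraries. The members and gene lists were chosen with earlier results of these data known. All 10 members are named, with up to 4 genes of smallest p per list. From the relatives and the markers, those that illustrate a statement were picked after their values were seen. Depth was estimated from single-exon genes, where 83.4% to 90.7% of low values lay within 0.1 of a whole fragment after 200 to 250 bp were taken off the length. Fragment numbers cover counting error only. The script was tested on simulated data with the spread of the KO pair. There it made 16 false calls over 15867 genes. It recovered 6% of log2 changes of 1 and 80% of log2 changes of 2, with 50 changed genes at each size. A gene that did not pass is therefore not shown to be unchanged. Alternatives covered the libraries used, replicate block, pseudocount, filter, scaling, subtraction of the WT replicate 2 profile, genomic span and trend. Some genes of the lists are not reported here by name.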

Additional observations from a re-analysis of the deposited data

How the results depend on the processing

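Of 156 values of single members under 16 alternatives, 131 kept their direction and, where a test was possible, their side of the threshold. A further 5, all of Irf8, newly passed and 20 turned. Values with 1 KO library left out had no test. Irf8 passed with equal totals, no filter, a pseudocount of 5, quantile normalization and WT replicate 2 as the only WT library (1 member called higher in each of the first 4 settings, 5 in the last). Over all genes, equal totals called 93 higher and 1253 lower, and a pseudocount of 5 called 106 and 2129. The last setting called 7103 of 20739 genes higher. The adjusted p of Irf8 ran from 0.0158 to 0.0805 over the alternatives that kept WT replicate 1 alone. The genes called, 72 higher and 1487 lower among 15867, moved to 59 and 520 after subtraction of the WT replicate 2 profile, 25 and 196 with at least 1 FPKM in 2 libraries, 18 and 515 with a mean of at least 5 FPKM, 761 and 9265 without a filter, 29 and 672 with a pseudocount of 0.1, 11 and 333 in short-span genes, 865 and 1716 with quantile normalization, 28 and 1294 without the trend, and 7103 and 8850 against WT replicate 2 alone. The filter of at least 1 FPKM in 2 libraries kept 13848 genes and that of a mean of at least 5 FPKM kept 11091. What accounts for these shifts was not tested. Equal totals moved the median of all genes by 0.22 on the log2 scale, the median ratio by -0.19 and quantile normalization by 0.21. The split of higher against lower calls moved by over 10 percentage points under quantile normalization and against WT replicate 2.

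With all 4 libraries, limma called 0 genes higher and 0 lower, with or without a replicate block. With the block, 191 higher and 1932 lower genes had an unadjusted p under 0.05. The labels give the same numbers in both groups and state no pairing. Replicate 1 libraries deviated together at a Pearson correlation of 0.039 across 20434 genes. With 4 libraries, with or without the block, the member median was 1.47 and Ly6c2, Ccr2, Ms4a6c, F13a1, Siglech and Cd209a turned to 3.83, 2.27, 2.81, 0.40, 0.76 and 0.88. Against WT replicate 2 alone, the median was 2.45 and these were 8.33, 5.22, 6.49, 1.004, 1.97 and 2.50. F13a1 also turned with equal totals (0.029), and leaving out 1 KO library gave -0.48 to 0.070, above 0 without KO replicate 2. Leaving out 1 KO library gave member medians of -0.71 to -0.33, as values with no test, since no residual degree of freedom was left, and no counts of genes. Cd300e, Cx3cr1, F13a1 and Ms4a6c are not short-span genes and have no value there. Depth limits Cd300e, Klf4 and Cd209a most.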

Other observations

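Receptors encoded near Ccr2 and ligands of the 2 chemokine receptors were read as well. Ccr1, a receptor gene of neutrophils and monocytes, was at 35.2 and 25.1 FPKM in KO, against 65.9 and 0.30 FPKM in WT. Ccr3, the eotaxin receptor gene of eosinophils, was at 10.8 and 10.9 FPKM in KO, against 3.17 and 0.13 FPKM in WT. Neither passed (limma adjusted p = 0.169 for Ccr1 and 0.0861 for Ccr3), and Ccr3 passed as higher with quantile normalization. Of the ligand genes, Ccl2 was at 3.26 and 3.86 FPKM in KO, against 5.01 and 2.26 FPKM in WT, Cx3cl1 at 1.15 and 1.94 FPKM in KO, against 2.93 and 1.98 FPKM in WT, and Ccl7 and Ccl12 at 1.25 FPKM or less in every library.

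Values of 3 other relatives of the members follow. F13b, the carrier subunit of factor XIII, was at 0 in both KO libraries and WT replicate 1 and at 0.18 FPKM in WT replicate 2. Ms4a3, a gene of granulocyte and monocyte precursors, was at 188 and 165 FPKM in KO, against 441 and 1.99 FPKM in WT (log2 difference from WT replicate 1 -1.32, SE 0.13, limma adjusted p = 0.0733), and it passed as lower with quantile normalization. Siglecf, an eosinophil receptor gene, was at 21.7 and 9.34 FPKM in KO, against 4.11 and 0 FPKM in WT, and did not pass. Markers of cell types were read as well. Tested were 9 of B cells, 5 of eosinophils and basophils, 10 of macrophages and 10 of stem cells. A further 13 were of neutrophils, 6 of T and NK cells, 4 of megakaryocytes and 8 of erythroid cells. The macrophage markers were above 0 in 8 of 10 (median 0.87), and among them C1qa was at 23.3 and 34.1 FPKM in KO, against 10.6 and 1.93 FPKM in WT. The neutrophil markers were below 0 in 13 of 13 (median -0.84, and 12 of 13 under equal totals), and none passed. The T and NK cell markers (median -0.84), the megakaryocyte markers (-0.37), the erythroid markers (0.50) and the eosinophil and basophil markers (2.07) had no gene that passed either with limma. Of the 5 eosinophil and basophil markers 3 were above 0, and the basophil markers Mcpt8 and Prss34 were below it (-0.34 and -0.24). With quantile normalization, 2 eosinophil and basophil markers (Prg2 and Epx) and 3 B cell markers passed as higher, and the stem cell marker Tek passed as lower. That setting called 865 of all 15867 genes tested higher and 1716 lower. At an unadjusted p under 0.05, 5 B cell markers and 2 eosinophil and basophil markers were higher, 1 macrophage marker was higher and 1 lower, and 3 stem cell, 2 neutrophil, 2 T and NK cell and 1 megakaryocyte marker were lower, against 13.2% of all genes tested higher and 20.2% lower. No erythroid marker reached that p.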
